A study of Homo sapiens with 4 samples.

Results

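miR-21 is a miRNA hairpin with a 5p arm, hsa-miR-21-5p, and a 3p arm, hsa-miR-21-3p, written miR-21-5p and miR-21-3p below, and its reads were taken from small RNA sequencing of HCT116 cells, an established line of human colon carcinoma cells. Its members are all rows of the deposited count table that carry the name of either arm, which are 108 end isoforms of 12689 in the table, 53 of the 5p arm and 55 of the 3p arm. An end isoform is a read class defined by where the read starts and stops relative to the annotated ends of the arm. The study had 4 libraries, each from cells that received plasmids in the pCDNA3 vector, namely the empty plasmid, wild-type pri-miRNA plasmids, mutant 1 pri-miRNA plasmids or mutant 2 pri-miRNA plasmids. According to the methods, the wild-type mixture and both mutant mixtures also held a pri-mir-16-1 plasmid, the wild-type and mutant 1 mixtures held versions of the same other pri-miRNAs, and the mutant 2 mixture held 1 variant of pri-mir-342 filled up with empty plasmid. Which mixture belongs to which mutant label was read from the order of their listing. No listed mixture held pri-mir-21, and miR-21 is here a miRNA of the cells' own genome. Each condition has 1 library and no replicate, so no test between conditions was possible, and all intervals are 95% intervals that cover counting error only.

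miR-21 is among the best known miRNAs of carcinomas, where its 5p arm is usually abundant and represses mRNAs such as that of PDCD4, an inhibitor of translation. A miRNA recognizes its target mRNAs mainly through its seed, bases 2 to 8 counted from the 5p end, so a shift of the start by a single nucleotide changes the set of targets, whereas a change at the 3p end leaves the seed as it is. RNase III enzymes make the ends. DROSHA, the nuclease of Microprocessor, cuts the primary transcript and sets the start of the 5p arm and the stop of the 3p arm, and DICER then cuts near the loop and sets the stop of the 5p arm and the start of the 3p arm. One arm is kept in an Argonaute protein and the other is mostly degraded, and 3p ends can be trimmed or extended after cleavage. The addition of an adenosine to the 3p end by the poly(A) polymerase PAPD5 is known for miR-21.

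In the GRCh38 annotation, MIR21 lies on the plus strand at chr17:59841266-59841337. This interval is inside the last exon of VMP1, a gene for a membrane protein of autophagy, on the same strand. In the protein-coding transcript that reaches furthest downstream it is in exon 12 and in the 3′ UTR, which spans 59839909 to 59842255. miR-21-5p is at 59841273 to 59841294. The isoforms below are shown because the first 4 held nearly all reads of the 5p arm and the other 3 carry other seeds. Capitals mark the seed, and all letters are those of RefSeq and the genome (GRCh38.p14). Mismatches at the 3p end of a read were allowed in the authors' mapping, so the last bases of the longer reads may differ from the genomic letters shown.
miR-21-5p, annotated ends, 22 nt: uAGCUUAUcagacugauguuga
miR-21-5p, stop 1 nt downstream, 23 nt: uAGCUUAUcagacugauguugac
miR-21-5p, stop 2 nt downstream, 24 nt: uAGCUUAUcagacugauguugacu
miR-21-5p, stop 1 nt upstream, 21 nt: uAGCUUAUcagacugauguug
miR-21-5p, start 1 nt upstream, 23 nt: gUAGCUUAucagacugauguuga
miR-21-5p, start 1 nt and stop 2 nt downstream, 23 nt: aGCUUAUCagacugauguugacu
miR-21-5p, start 2 nt and stop 2 nt downstream, 22 nt: gCUUAUCAgacugauguugacu

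The libraries held 14544516 to 19834361 miRNA reads. Plasmid-encoded miRNA names took 7.999% of them with the empty plasmid and 29.5%, 29.3% and 11.7% with the wild-type, mutant 1 and mutant 2 plasmids. Levels are therefore given as RPM, reads per 1000000 untransfected miRNA reads, that is, reads of the 1608 of 1644 miRNA names that no deposited plasmid sequence encodes. The epithelial origin of the cells was checked against marker miRNAs. The 6 epithelial markers, led by miR-141-3p and miR-200c-3p, summed to 23375 to 25776 RPM, the 4 blood cell markers to 4.86 to 6.15, and the 3 muscle markers had no listed reads. Of the 6, miR-205-5p had only 9.15 to 12.9 RPM. With the empty plasmid and in mutant 1, miR-203a-3p had 1170 and 803 RPM, miR-200a-3p 1624 and 1746, and miR-429 1160 and 1424. The liver marker miR-122-5p had 0.570 to 1.23 RPM, and the 2 neural markers summed to 0.499 to 0.735. The 3 intestinal epithelial markers summed to 3069, 2501, 1849 and 2451 RPM in the empty plasmid, wild-type, mutant 1 and mutant 2 libraries, and this sum, like miR-21-3p below, was lowest in mutant 1. Nearly all of it was miR-192-5p, at 3003 RPM with the empty plasmid and 1791 in mutant 1. In the same library order, miR-215-5p had 34.97, 25.98, 24.24 and 29.21 RPM, whereas miR-194-5p had 31.8, 33.7, 33.5 and 34.4 and was not lower in any plasmid library. The endothelial marker miR-126-3p had 238 to 286 RPM. Of the mesenchymal markers, miR-145-5p had 90.7 RPM with the empty plasmid and 336 in the mutant 1 library, miR-143-3p had 229 and 125, and miR-199a-3p and miR-214-3p stayed under 1. The part of any other cell type in the results on miR-21 was not tested.

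miR-21-5p was the most abundant untransfected miRNA in all 4 libraries. Its reads numbered 2864394 with the empty plasmid, 2780276 in the wild-type, 3466940 in the mutant 1 and 3487512 in the mutant 2 library. This was 214063, 227112, 247159 and 230439 RPM in the same order. Among all miRNA names it was outnumbered only in the mutant 1 library, by the plasmid-encoded miR-182-5p. Relative to the empty plasmid the level was 1.06 times as high in the wild-type (1.059 to 1.063), 1.155 times in the mutant 1 (1.153 to 1.156) and 1.08 times in the mutant 2 library (1.075 to 1.078), and the direction of each of these differences flipped under at least 1 other scaling or subset of reads. As a share of all miRNA reads, for example, miR-21-5p was 19.7% with the empty plasmid and lower, 16.0% and 17.5%, in the wild-type and mutant 1 libraries. The methods scale miRNA levels by miR-16-5p, which is plasmid-encoded in all but the empty plasmid library. On that scale miR-21-5p was at 0.517, 0.557 and 0.439 times the empty plasmid level in the wild-type, mutant 1 and mutant 2 libraries. On the RPM scale the differences are small beside the scatter of the other miRNAs. Over the 476 untransfected names with a mean of at least 50 reads, miR-21 included, the log2 ratio of mutant 1 to empty plasmid had an SD of 0.50 and a median of −0.02, against 0.21 for miR-21-5p.

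miR-21-3p, the arm that is mostly discarded, was lower in every transfection with pri-miRNA plasmids than with the empty plasmid, and lowest in the mutant 1 library. It had 520495, 402175, 288753 and 467693 reads in the empty plasmid, wild-type, mutant 1 and mutant 2 libraries, which is 38898, 32853, 20585 and 30903 RPM. The ratio to the empty plasmid was 0.845 in the wild-type library (0.841 to 0.848), 0.794 in mutant 2 (0.791 to 0.798) and 0.529 in mutant 1 (0.527 to 0.532). The mutant 1 level was 0.627 times the wild-type level (0.624 to 0.630). All 4 ratios stayed below 1 under each of the other scalings tried. In the comparison of mutant 1 with the empty plasmid, 12 of the 476 untransfected miRNAs had a lower ratio than miR-21-3p, and among the 88 with a mean of at least 10000 reads none did. On the RPM scale, neither arm differed by more than 2-fold in any comparison. On other scales some did, with miR-21-3p at 0.407 in mutant 1 against the empty plasmid relative to all miRNA reads. Relative to miR-16-5p, miR-21-3p was at 0.412, 0.255 and 0.324 in the wild-type, mutant 1 and mutant 2 libraries and miR-21-5p at 0.439 in mutant 2. On the RPM scale, past that limit were 1.89% of the untransfected miRNAs for wild type against empty plasmid, 3.99% for mutant 1, 1.47% for mutant 2, and 2.31% for mutant 1 against wild type.

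The ratio of the arms does not depend on the scaling between libraries. There were 5.50 reads of miR-21-5p per read of miR-21-3p with the empty plasmid (5.49 to 5.52), 6.91 in the wild-type library (6.89 to 6.94), 12.0 in mutant 1 (11.96 to 12.05) and 7.46 in mutant 2 (7.43 to 7.48). The 3p arm thus made up 15.4% of miR-21 reads with the empty plasmid and 7.69% in mutant 1. Among 115 untransfected hairpins with both arms listed and together at least 1000 reads on average, miR-21 had the most abundant minor arm in every library. The next one with the empty plasmid was that of miR-1307, with 21219 reads. The ratio of major to minor arm was lower than that of miR-21 in 18 hairpins with the empty plasmid and in 33 in the mutant 1 library, and the median hairpin had 34.3 and 34.7. With the empty plasmid, the neighbours in this order were miR-339 at 5.12 and miR-502 at 5.67. In the mutant 1 library, miR-31 at 11.93 and miR-140 at 12.25 stood next to it.

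From the empty plasmid to the mutant 1 library, the miR-21 arm ratio became 2.18-fold higher, or 1.85-fold higher when only reads with both annotated ends were counted. Of 98 hairpins with at least 50 reads on average in each arm, 3 had a larger increase of the 5p to 3p ratio, and 7 had a larger change in either direction. In the same comparison 16.3% of the 98 hairpins moved by more than 2-fold, and 10.2% did so toward the 5p arm. The change was 1.26-fold for wild type against the empty plasmid, 1.36-fold for mutant 2 and 1.74-fold for mutant 1 against wild type, and 6.12%, 5.1% and 8.16% of hairpins, in this order, moved by more than 2-fold. A larger increase than that of miR-21 was seen in 19, 15 and 8 of the 98 hairpins in these comparisons, and a larger change in either direction in 40, 35 and 10. Among the 98, as among the 115, 3 pairs of hairpin names hold an arm with the same read count in every library, such as miR-423-5p and miR-3184-3p, so those reads count under both names. The comparisons with the empty plasmid share its library. Counted on reads with both annotated ends, the arm ratios were lower in all libraries, at 2.16 with the empty plasmid, 2.68 in the wild-type, 3.98 in the mutant 1 and 2.70 in the mutant 2 library, in the same order.

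The start of miR-21-5p, made by DROSHA, was nearly the same in all libraries. Reads that began at the annotated base were 99.14% with the empty plasmid, 99.18% in the wild-type, 99.25% in the mutant 1 and 99.20% in the mutant 2 library. Among 88 untransfected miRNAs with at least 10000 reads on average, 58 had a lower share at the annotated start with the empty plasmid, and the median was 98.7%. The 88 names include miR-103a-3p and miR-103b, whose end shares mirror each other. With the empty plasmid, miR-103a-3p had 99.04% at the annotated start and 0% at the annotated stop, and miR-103b the reverse. For miR-21-5p, starts 1 nt downstream made up 0.522%, 0.509%, 0.443% and 0.485% in the library order above, and starts 1 nt upstream 0.286%, 0.267%, 0.277% and 0.270%. The reads that start 1 nt downstream, with the seed GCUUAUC, came to 1094 to 1156 RPM, and only 68 to 75 miRNA names had more reads than that in the same library. Those that start 1 nt upstream, with the seed UAGCUUA, came to 606 to 684 RPM. Starts 2 nt downstream came to 61.6 to 75.7 RPM.

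The seed AGCUUAU of miR-21-5p is also that of miR-590-5p in the RefSeq table, which differs from it in the rest of the molecule. The mature miR-590-5p, at chr7:74191213-74191234 on the plus strand, is shown for comparison with the seed in capitals.
miR-590-5p, 22 nt: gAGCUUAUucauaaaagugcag
miR-590-5p had 86, 203, 205 and 245 reads in the empty plasmid, wild-type, mutant 1 and mutant 2 libraries, or 6.43, 16.6, 14.6 and 16.2 RPM. It was 2.58 times as high in the wild-type library as with the empty plasmid (2.01 to 3.32), 2.27 times in mutant 1 (1.77 to 2.93) and 2.52 times in mutant 2 (1.97 to 3.22). The seed thus came almost wholly from miR-21-5p, which had 33307 reads per read of miR-590-5p with the empty plasmid and 13696 to 16912 in the others. The upstream-shifted seed UAGCUUA is that of miR-5579-3p, a name without a row in the count table, and no miRNA of the RefSeq table has the seed GCUUAUC or CUUAUCA.

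The stop of miR-21-5p, made by DICER and open to later trimming and tailing, was spread over 3 main positions. With the empty plasmid, 35.3% of the reads stopped at the annotated base, 36.0% stopped 1 nt downstream and 24.5% stopped 2 nt downstream, while 3.59% stopped 1 nt upstream. The annotated stop was thus not the most frequent one in any library. The 4 isoforms listed first above, the annotated start with each of these 4 stops, held 98.6% to 98.99% of the 5p reads, and the isoform with both annotated ends held 35.1%, 34.0%, 28.9% and 31.8% in the empty plasmid, wild-type, mutant 1 and mutant 2 libraries. The mean length was 22.8 to 22.9 nt in all 4 libraries. This spread was wide for an abundant miRNA. The most frequent stop held 36.0% of miR-21-5p reads with the empty plasmid, the lowest share of the 88 abundant miRNAs, whose median was 74.9%. The effective number of stops, the inverse of the summed squared shares, was 3.16 with the empty plasmid and 2.96 to 3.11 in the others, and 85 of the 88 had fewer in each library.

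The stop profile differed most in the mutant 1 library. The stop 1 nt downstream had 36.0% with the empty plasmid (35.97 to 36.09) and 44.2% in mutant 1 (44.12 to 44.22), and the wild-type library, at 39.4%, and the mutant 2 library, at 41.0%, lay between them. The share ratio of mutant 1, its share over that with the empty plasmid, was 1.23 at this stop. The median was 1.12 over 68 other abundant untransfected miRNAs, and 48 of them had a lower ratio. The annotated stop had 35.3%, 34.2%, 29.1% and 32.1% in the empty plasmid, wild-type, mutant 1 and mutant 2 libraries, so it was lowest in mutant 1. Its share ratio in mutant 1 was 0.823, against a median of 1.01 over 83 others, of which 3 had a lower one. The stop 2 nt downstream had 24.5%, 21.9%, 23.9% and 23.1%, without a low value in mutant 1. The 23 nt isoform, with the annotated start, had 76617, 88844, 108578 and 94026 RPM. On this scale it was 1.42 times as high in mutant 1 as with the empty plasmid, while the isoform with both annotated ends was at 0.951. In all, 8.16% of the reads would have to move to another stop to turn the empty plasmid profile of miR-21-5p into that of mutant 1. The median of the 88 abundant miRNAs was 2.77%, and 12 of them had more than miR-21-5p.

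Short reads of miR-21-5p were rarer in the mutant 1 library the shorter they were. At the stop 1 nt upstream the share ratio was 0.707 (0.701 to 0.713) in mutant 1, against a median of 0.931 over 79 other abundant miRNAs. At the same stop it was 0.937 in mutant 2 and above 1, at 1.125, in the wild-type library. Stops 2 nt upstream were 0.306% of the reads with the empty plasmid and 0.141% in mutant 1, a share ratio of 0.462 (0.446 to 0.479). At 3 nt upstream the share ratio was 0.314 (0.297 to 0.333), from 4390 and 1670 reads, and at 4 nt upstream it was 0.277 (0.237 to 0.324), from 626 and 210 reads. At the other side, stops 3 and 4 nt downstream were 1.42 (1.30 to 1.54) and 1.41 (1.27 to 1.57) times as frequent in mutant 1. At 3 nt downstream the median of 18 other abundant miRNAs was 1.29, and 12 of them had a lower ratio. At 4 nt downstream only 4 others could be compared, with a median of 1.03. The mutant 2 library had share ratios of 0.734, 0.606 and 0.632 at 2, 3 and 4 nt upstream, and the wild-type library 0.916, 0.859 and 0.792. Short reads of other miRNAs were rarer in mutant 1 as well. Among other abundant untransfected miRNAs with enough reads at the stop 2 nt upstream, 66 of 73 also had a share ratio below 1, with a median of 0.744. At 3 nt upstream it was 35 of 38, with a median of 0.581, and at 4 nt 19 of 20, with a median of 0.492. miR-21-5p was beyond most of them, with a lower ratio in 5 of the 73, 1 of the 38 and 0 of the 20. In mutant 2 the medians of these others were 0.893, 0.769 and 0.693, and 9, 2 and 6 of them had a lower ratio than miR-21-5p. For the wild-type library the medians were 0.999, 0.922 and 0.943, with 20, 14 and 7 lower. In mutant 1, miR-21-3p was closer to the others, with a share ratio of 0.673 (0.605 to 0.749) at 2 nt upstream and a lower one in 27 of the 73. At 3 nt upstream, with 47 reads in mutant 1 and 108 with the empty plasmid, its share ratio was 0.784 (0.557 to 1.10), and 31 of the 38 had a lower one. At 2 nt downstream miR-21-5p went the other way, with a share ratio of 0.977 against a median of 1.23 over 39 miRNAs.

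**Figure D1:**
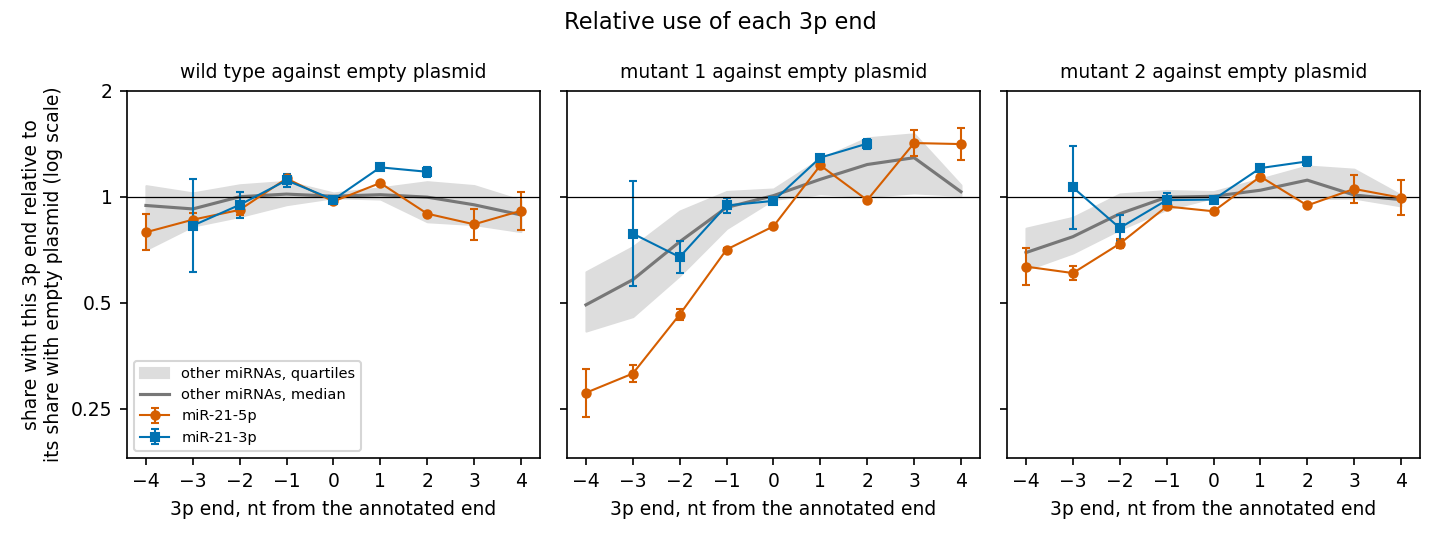
Points give, for each position of the 3p end, the share of an arm's reads relative to its share with the empty plasmid (log scale, bars are 95% counting intervals), for miR-21-5p (orange) and miR-21-3p (blue), and the grey line and band give the median and quartiles of other abundant untransfected miRNAs. In the mutant 1 library miR-21-5p falls to 0.277 at 4 nt upstream, where the median of the others is 0.492.

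The 3p arm had sharper ends. Its start, made by DICER, was at the annotated base in 98.26%, 98.24%, 98.32% and 98.34% of the reads in the empty plasmid, wild-type, mutant 1 and mutant 2 libraries. Starts 1 nt downstream made up 1.29% to 1.38% and starts 2 nt downstream 0.284% to 0.324%. Its stop, made by DROSHA, was at the annotated base in 90.4%, 88.6%, 87.8% and 88.6% of the reads. Stops 1 nt downstream were 7.04%, 8.52%, 9.08% and 8.48%, and stops 2 nt downstream 1.51%, 1.77%, 2.13% and 1.89%. The longer reads of the 3p arm were thus most frequent in mutant 1 and least frequent with the empty plasmid, with share ratios of 1.29 (1.27 to 1.31) and 1.41 (1.37 to 1.46) for mutant 1 at 1 and 2 nt downstream, against medians of 1.12 and 1.23 over 68 and 39 other abundant miRNAs. The 3 isoforms with the annotated start and a stop at the annotated base or 1 or 2 nt downstream held 97.1% to 97.4% of the 3p reads, and the isoform with both annotated ends alone held 87.1% to 89.4%. The effective number of stops was 1.22 to 1.28.

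Some start and stop positions occurred together more often than independent ends would give, and others less often. Of the miR-21-5p reads that started 1 nt downstream, 47.2% also stopped 2 nt downstream with the empty plasmid, against 24.4% of those with the annotated start. The joint isoform was 1.93 to 2.11 times as frequent in the 4 libraries as it would be if start and stop were independent. The miR-21-5p reads that started 1 nt upstream stopped most often at the annotated base, in 42.8% to 46.4%. Of the miR-21-3p reads that started 2 nt downstream, 85.6% to 88.1% stopped 2 nt downstream, while 0.857% to 1.37% of those with the annotated start did so. This miR-21-3p isoform, with both ends moved by 2 nt and the annotated length of 21 nt, had 1306, 1118, 721 and 1239 reads in the empty plasmid, wild-type, mutant 1 and mutant 2 libraries, 41.4 to 56.9 times the number that independent ends would give. Of the miR-21-3p reads that started 1 nt downstream, 29.6% to 39.9% stopped 2 nt downstream, but 52.3% to 63.3% stopped at the annotated base. Reads with both ends 1 nt downstream were rarer than independent ends would give, at 0.680 to 0.705 times that number for the 5p arm and 0.765 to 0.915 times for the 3p arm. For 3p reads that started 1 nt upstream and stopped at the annotated base, the number was 0.947 to 1.05 times that of independent ends.

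Of the 108 isoforms, 77 had reads in all 4 libraries, 11 of the 5p arm and 14 of the 3p arm had 3 or fewer reads in each, and 36 had a mean of at least 50 reads, 23 of the 5p arm and 13 of the 3p arm. In mutant 1 against the empty plasmid, 10 of these 36 differed by more than 2-fold, all lower, where 11.4% of the 1436 isoforms of untransfected miRNAs did so and 8.5% were lower. Of the 10, 4 were 5p isoforms. These were the isoforms with the annotated start and a stop 3 or 4 nt upstream, at 0.364 and 0.323 times the empty plasmid level, and isoforms that start 4 nt downstream and stop at the annotated base or 2 nt downstream, at 0.315 and 0.406. The other 6 were 3p isoforms, the arm that was lower as a whole, at 0.346 to 0.497. Scaled by the reads of the same arm instead, 5 isoforms passed 2-fold, all lower, of the 5p arm and 18 to 20 nt long, where 5.78% of the 1436 isoforms did so when each was scaled by the reads of its own arm. No isoform of the 36 passed 2-fold for wild type (background 1.11%) or for mutant 2 (background 1.88%) against the empty plasmid, and 7 did, all lower, for mutant 1 against wild type (background 8.43%, and 7.03% lower). The median log2 ratio of mutant 1 to the empty plasmid was −0.07 over the 23 isoforms of the 5p arm and −0.96 over the 13 of the 3p arm, against −0.07 over all 1436.

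On the untransfected scale, the miRNAs nearest to each arm in their pattern over the 4 libraries were different. The measure was the Euclidean distance between centred log2 levels, over 172 untransfected miRNAs with at least 1000 reads on average. Nearest to miR-21-5p were miR-374a-3p, miR-30e-5p, miR-186-5p, miR-125a-5p and miR-361-3p, at distances of 0.0437 to 0.0893 against a median of 0.340. Nearest to miR-21-3p were miR-1180-3p, miR-671-3p, miR-143-3p, miR-148a-5p and miR-345-5p, at 0.116 to 0.167 against a median of 0.652. The arms were 0.819 apart, and 167 miRNAs were closer to the 5p arm than the 3p arm was. From the other side, 130 miRNAs were closer to the 3p arm than the 5p arm was. Of the other most abundant untransfected miRNAs, on the same scale, miR-10a-5p and miR-10b-5p were 1.56 and 1.59 times as high in mutant 1 as with the empty plasmid, and miR-191-5p was at 0.813.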

How the data were processed

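Small RNA of HCT116 cells was sequenced by the study in 4 libraries, 1 per condition. The authors used cutadapt for adapter removal and a size limit of 18 to 26 nt, dropped reads of low quality, aligned the remainder to hg38 with Bowtie2 and assigned reads with mismatches only at the 3p end to the loci of miRBase. The deposited values are raw read counts per end isoform, without normalization. The reads were not realigned here, so the size selection and the mapping rules are part of every value.

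The sign of the end offsets was taken from the counts table itself. When a positive 5p offset is a later start and a positive 3p offset an earlier stop, 0 of 10981 isoforms with a known annotated length fall outside 18 to 26 nt, and the other 3 readings leave 735 to 1707 outside. The text gives the 3p end as nt downstream, so the sign is turned.

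Levels are reads per 1000000 reads of miRNAs that no plasmid encodes, and 36 names were left out of that total. Ratios have normal intervals on the log scale and shares Wilson intervals, both at 95%. A count of 3 was the floor. Read depth sets these intervals, and reads without molecular identifiers are not independent molecules. Isoforms and miRNA names were compared from a mean of 50 reads, hairpins from 1000, end profiles from 10000. Alternatives were other scalings, including edgeR's TMM (version 4.0.16) and DESeq2's size factors (version 1.42.0) in R 4.3.3, other read minimums, a 1.5-fold limit, and subsets of reads by end or length. Only the scaling factors of edgeR and DESeq2 were used.

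The miRNAs named were both arms and their isoforms of at least 1% or leading at an end, miRNAs with a shared seed, the 5 most abundant untransfected names, the 5 nearest patterns of each arm and neighbours in the arm ratio order. Rarer isoforms and markers were named after their values were seen. The members and lists were chosen with earlier results of these data known. Sequences are from RefSeq tables and the genome, and positions of VMP1 from GENCODE. The work used Python 3.11.15 (statsmodels 0.14.6, pandas 2.3.3, numpy 2.4.6, and matplotlib 3.10.9 for plots). Only the intervals and the call of a rise above 2-fold were tested on simulated counts, which held no scatter between libraries beyond counting error. The plasmid sequences served only to find the plasmid-encoded names.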

Additional observations from a re-analysis of the deposited data

How the results depend on the processing

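No paired analysis was possible because each condition has 1 library and no result comes from a test. The 95% limits count reads only, differences between transfections were not measured, and the narrow limits made most alternatives exceed them. miR-21-3p stayed below the empty plasmid under all 6 alternatives in all 3 comparisons, and the arm ratio stayed highest in mutant 1 under both of its alternatives. The direction for miR-21-5p did not hold.

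The values below are ratios for miR-21-5p and then miR-21-3p, each for wild type, mutant 1 and mutant 2 against the empty plasmid and for mutant 1 against wild type. Scaled by all miRNA reads they were 0.813, 0.888, 1.03 and 1.09, and 0.647, 0.407, 0.763 and 0.629. Scaled, as in the methods, by miR-16-5p, which is plasmid-encoded in all but the empty plasmid library, they were 0.517, 0.557, 0.439 and 1.08, and 0.412, 0.255, 0.324 and 0.620. Without miR-21 in the total they were 1.07, 1.18, 1.09 and 1.10, and 0.853, 0.540, 0.803 and 0.633. With edgeR's TMM they were 0.988, 1.25, 1.06 and 1.27, and 0.787, 0.574, 0.779 and 0.729. With DESeq2's size factors they were 0.985, 1.23, 1.05 and 1.25, and 0.784, 0.563, 0.771 and 0.719. With only reads of both annotated ends they were 1.03, 0.951, 0.978 and 0.925, and 0.828, 0.515, 0.780 and 0.622. The scaling by miR-16-5p lowers the log2 ratio of every miRNA for mutant 1 against the empty plasmid by 1.05, that by all reads lowers it by 0.38 and TMM raises it by 0.12.

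The arm ratio in the empty plasmid, wild-type, mutant 1 and mutant 2 libraries was 5.55, 6.98, 12.1 and 7.52 with only annotated starts, and 2.16, 2.68, 3.98 and 2.70 with both annotated ends. With reads of 20 to 24 nt, the empty plasmid shares were 99.2% at the annotated start and 36.1% at the stop 1 nt downstream for miR-21-5p, and 98.3% and 90.6% at the annotated start and stop for miR-21-3p. With the other end annotated, they were 99.2%, 36.1%, 98.96% and 91.0%, and the differences of mutant 1 from the empty plasmid at the annotated start were 0.0614 points for miR-21-5p and 0.184 points for miR-21-3p. miR-21 isoforms past 2-fold, in the order of comparisons above, numbered 2, 17, 2 and 15 of 55 from a mean of 10 reads, where 9.53%, 19.9%, 9.68% and 17.7% of all isoforms of untransfected miRNAs passed. From 200 reads they numbered 5 of 29 for mutant 1 against the empty plasmid and 3 against wild type, where 8.34% and 6.38% of all passed. At 1.5-fold they numbered 19, 4 and 18 of 36 for mutant 1 and mutant 2 against the empty plasmid and mutant 1 against wild type, where 33.7%, 11.9% and 29.9% of all passed. Scaled by the same arm, they numbered 5 for mutant 1 against the empty plasmid (5.78% of all). All of these were lower, except 1 of the 2 for wild type from 10 reads and 2 each of the 19 and the 18 at 1.5-fold, which were higher.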
